A study of Mus musculus with 8 samples.

Results

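The inflammasome pathway was read through 9 genes in mouse mammary tumours, namely the caspases Casp1, Casp4 and Casp12, the sensors Nlrp3 and Aim2, the adaptor Pycard, the cytokines Il1b and Il18, and the pore-forming Gsdmd. They were taken by name. Each was represented by the array probe that the platform annotation assigns to that gene alone, and Gsdmd, with 2 such probes, by the one of higher mean signal over the 8 tumours. The arrays gave such a probe to 22180 genes, all 9 among them, and all 9 passed the filter that left out the dimmest 25% of genes. The 9 genes were chosen by name with their signals in these 8 tumours already known, and the Gsdmd probe was selected on its mean signal. Levels and spread are therefore given as descriptions, and tests on them are not independent support.

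The tumours were primary mammary tumours of transgenic FVB mice, 4 labelled NeuNT/H1074R and 4 labelled NeuNT. All 8 carried NeuNT, a form of Neu, the rodent ErbB2 receptor. The 4 NeuNT/H1074R tumours also carried a mutant p110α, the catalytic subunit of PI3-kinase, which the series title writes as H1047R. The promoters of the transgenes, the ages of the mice and whether each tumour came from its own mouse are not given in the labels, and p-values reflect only how much these 8 samples scatter, which may in part be technical. Total RNA of each tumour was hybridised to 1 Affymetrix whole-transcript array, and values are log2 signals.

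An inflammasome is a protein platform that a sensor such as NLRP3 or AIM2 builds on the adaptor ASC, the product of Pycard. It activates caspase-1, which cuts the precursors of the cytokines IL-1β and IL-18 and opens gasdermin D, whose freed part forms pores in the cell membrane. Mouse caspase-4, long called caspase-11, cuts gasdermin D without that platform when it binds bacterial lipopolysaccharide in the cytosol. Caspase-12 is a close relative of both whose role is less settled. Transcript levels do not show whether any of these proteins was cut or active.

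Genotype accounted for 0.17% to 39.2% of the variance of each of these genes over the tumours, with the largest share in Il18. Casp1, Casp4 and Casp12 were high or low in the same tumours, with Casp12 spread over 7.92-fold between the highest and the lowest tumour. Il1b spread over 12.4-fold and was high in other tumours. Nlrp3 was also highest there, clearly in NeuNT replicate 4 (log2 signal 5.09) but at a dim 4.35 in NeuNT/H1074R replicate 1. None of the 9 genes differed between NeuNT/H1074R and NeuNT tumours by the test, and Il18, with a lower mean in NeuNT/H1074R, came closest.

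Over all 41345 probes of the table, array medians lay between 4.81 and 4.87, and no scaling was added. All 8 luminal epithelial markers passed the filter on dim genes in these tumours labelled mammary. Epcam ran from 10.18 to 10.99, but Krt19 from 5.37 to 11.52 and Foxa1 from 4.94 to 11.74, both lowest in NeuNT replicate 3. The luminal list mean ran from −0.77 in that tumour to 0.91 in NeuNT replicate 2. NeuNT replicate 4 stood apart by squamous keratinocyte markers, with a list mean of 3.46 relative to the mean of the 8 tumours, against −1.43 to 0.68 in the other tumours. Skeletal muscle markers were high in NeuNT/H1074R replicates 1 and 3, at 1.83 and 1.34, against −0.75 to −0.28 in the others. In whole tumours, fewer cells of a type and less RNA per cell cannot be told apart.

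**Figure D1:**
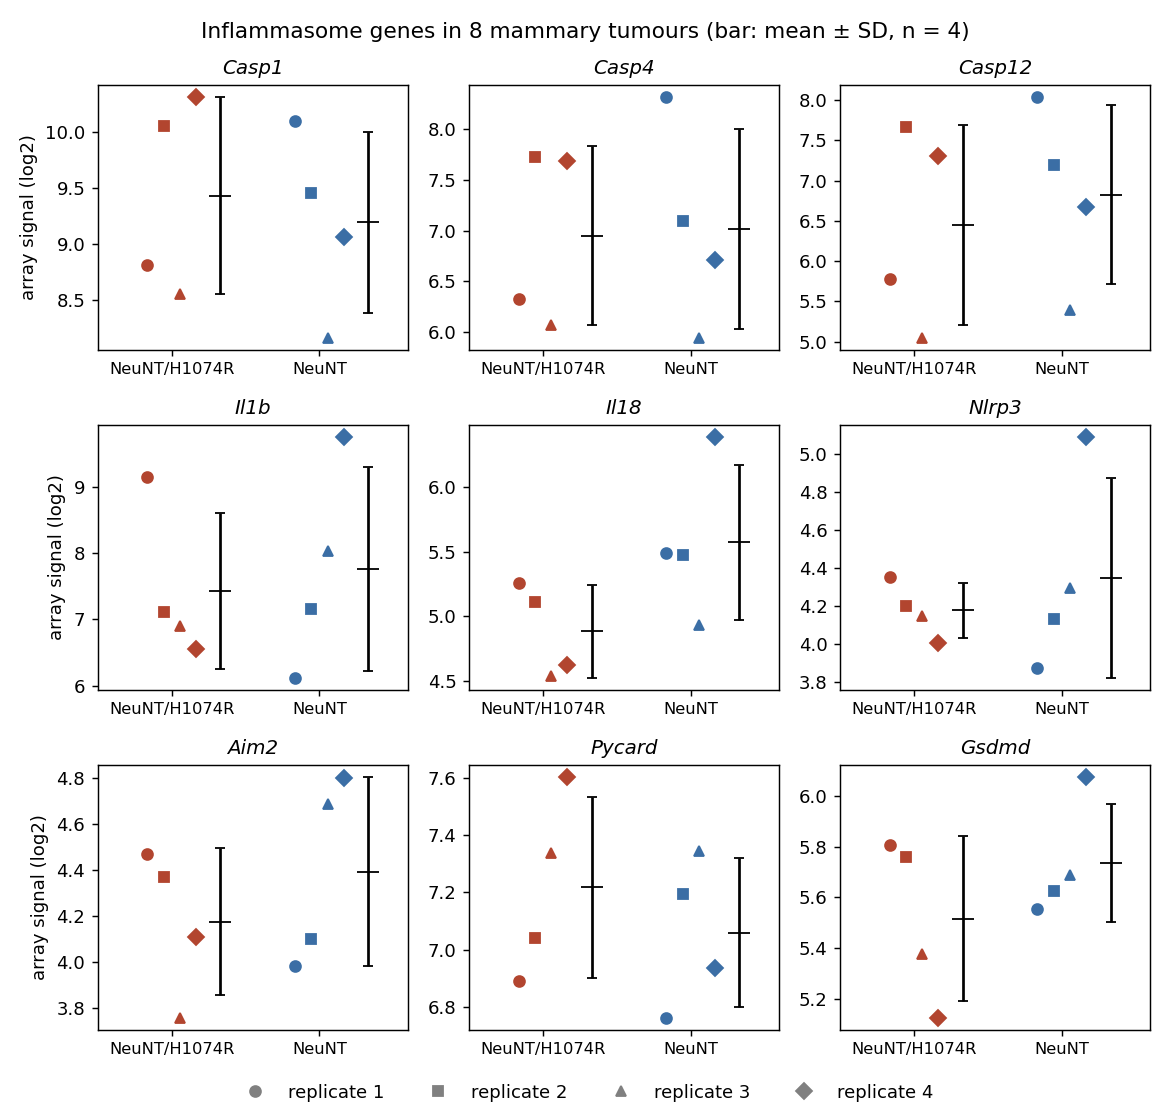
Log2 array signal of the 9 genes in each tumour, with NeuNT/H1074R on the left and NeuNT on the right of each panel; each marker shape is a replicate and the black bar is the mean ± SD (n = 4). The genotypes overlap in all 9 genes, and the vertical scale differs between panels.

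Casp1, which encodes the caspase at the centre of the canonical inflammasome, had log2 signals of 8.81, 10.06, 8.55 and 10.31 in NeuNT/H1074R replicates 1 to 4. In NeuNT replicates 1 to 4 it had 10.10, 9.45, 8.17 and 9.06. Tumours of both genotypes therefore stood at the top and at the bottom, 4.43-fold apart at the extremes.

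Casp4, the lipopolysaccharide-binding caspase, had 6.33, 7.72, 6.07 and 7.69 in NeuNT/H1074R replicates 1 to 4. In NeuNT replicates 1 to 4 it had 8.32, 7.09, 5.95 and 6.71. The same tumours were low as for Casp1, namely NeuNT/H1074R replicates 1 and 3 and NeuNT replicate 3.

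Casp12 had 5.78, 7.66, 5.05 and 7.31 in NeuNT/H1074R replicates 1 to 4, and 8.04, 7.20, 5.39 and 6.67 in NeuNT replicates 1 to 4. NeuNT replicate 1 was the highest and NeuNT/H1074R replicate 3 the lowest, and the genotypes overlapped over most of the range. The SD over the 8 tumours was 0.79 for Casp1, 0.87 for Casp4 and 1.11 for Casp12. It exceeded the SD of 94.2%, 95.2% and 97.4% of the tested genes, whose median SD was 0.25.

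The 3 caspase genes lie in a row on chromosome 9 with 0 other RefSeq genes between them, in the order Casp1, Casp4 and Casp12. They are relatives in sequence, the probe sequences were not used here, and how far a probe reads a neighbouring relative was not tested. The promoters of these genes are shown because their transcripts moved together, and those of Il1b and Nlrp3 because that pair moved together in other tumours. Each is the RefSeq stretch from 250 bases before to 50 after a start site in GRCm38.p6, and 8 of the 9 genes, all but Gsdmd, were matched to one. The first listed start is printed where a gene has 2, which applies to Casp4 and Nlrp3. Capitals mark matches on either strand to the interferon regulatory factor core AANNGAAA, the STAT element TTCNNNGAA or the NF-κB consensus:
Casp1 (chr9:5298267-5298566, plus strand): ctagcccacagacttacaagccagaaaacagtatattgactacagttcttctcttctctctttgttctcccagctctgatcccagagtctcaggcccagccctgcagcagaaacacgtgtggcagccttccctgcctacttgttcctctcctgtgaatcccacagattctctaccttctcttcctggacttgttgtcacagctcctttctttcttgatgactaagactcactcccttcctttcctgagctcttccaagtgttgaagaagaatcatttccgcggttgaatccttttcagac
Casp4 (chr9:5308599-5308898, plus strand): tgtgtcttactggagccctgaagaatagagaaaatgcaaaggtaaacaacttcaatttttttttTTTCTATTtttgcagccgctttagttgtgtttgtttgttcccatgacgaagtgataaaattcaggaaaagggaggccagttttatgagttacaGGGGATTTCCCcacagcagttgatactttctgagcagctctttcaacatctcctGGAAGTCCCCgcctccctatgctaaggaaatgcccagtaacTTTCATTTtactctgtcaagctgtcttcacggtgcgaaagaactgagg
Casp12 (chr9:5345226-5345525, plus strand): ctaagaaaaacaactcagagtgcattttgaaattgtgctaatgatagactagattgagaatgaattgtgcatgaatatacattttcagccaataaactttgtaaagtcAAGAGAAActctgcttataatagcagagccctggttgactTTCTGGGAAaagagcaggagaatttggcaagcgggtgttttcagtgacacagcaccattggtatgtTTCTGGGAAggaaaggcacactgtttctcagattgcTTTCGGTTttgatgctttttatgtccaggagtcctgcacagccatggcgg
Il1b (chr2:129371090-129371389, minus strand): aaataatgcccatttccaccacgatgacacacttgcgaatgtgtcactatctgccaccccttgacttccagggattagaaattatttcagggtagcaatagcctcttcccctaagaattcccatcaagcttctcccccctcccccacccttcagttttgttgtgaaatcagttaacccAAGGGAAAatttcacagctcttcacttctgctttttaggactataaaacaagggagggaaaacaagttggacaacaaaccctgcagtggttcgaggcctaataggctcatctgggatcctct
Nlrp3 (chr11:59542436-59542735, plus strand): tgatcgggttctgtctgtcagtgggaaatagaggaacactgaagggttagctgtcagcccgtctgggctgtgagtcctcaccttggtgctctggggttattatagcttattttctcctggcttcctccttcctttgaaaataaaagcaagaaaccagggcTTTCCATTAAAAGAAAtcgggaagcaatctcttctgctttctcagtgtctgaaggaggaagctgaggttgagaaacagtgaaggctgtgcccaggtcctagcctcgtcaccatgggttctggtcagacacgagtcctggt

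The Casp1 window held 0 matches to these 3 motifs. The Casp4 window held 2 matches to the interferon regulatory factor core and 3 to the NF-κB consensus, of which a pair overlaps. The Casp12 window held 2 matches to that core and 2 to the STAT element. The Il1b window held 1 match to the core and the printed Nlrp3 window 2, which lie end to end.

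Of 32851 promoter windows of the same length, 23.9% held the interferon regulatory factor core, 8.30% the STAT element and 8.46% the NF-κB consensus. The AP-1 element TGANTCA, the ETS core GAGGAA and the TATA box TATAAA were also searched, and 7.81%, 28.3% and 13.6% of windows held them. TGANTCA was in none of the 5 windows shown. The ETS core was found 1 time in the Casp1 window and 3 times in the printed Nlrp3 window, and the TATA box 1 time in the Il1b window. The other Nlrp3 start site, not printed, had 1 match to the interferon regulatory factor core, 1 to the NF-κB consensus and 0 to the ETS core, while that of Casp4 had the same counts as the printed one. These matches describe letters only. None of the 6 motifs was in all 3 caspase windows, and the interferon regulatory factor core was in those of Casp4 and Casp12.

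Nlrp3, the sensor of many danger signals, was dim on these arrays. Its log2 signals were 4.35, 4.20, 4.15 and 4.0 in NeuNT/H1074R replicates 1 to 4, and 3.87, 4.13, 4.29 and 5.09 in NeuNT replicates 1 to 4. NeuNT replicate 4 lay above all other tumours, and 2 tumours lay under 4.06, the mean below which genes were left out.

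Aim2, the sensor of double-stranded DNA in the cytosol, was also close to that line and had 2 tumours under it. It had 4.47, 4.37, 3.76 and 4.11 in NeuNT/H1074R replicates 1 to 4, and 3.98, 4.10, 4.69 and 4.80 in NeuNT replicates 1 to 4. NeuNT replicates 3 and 4 were the highest and NeuNT/H1074R replicate 3 the lowest.

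Pycard, the adaptor, varied least of the 9 genes. It had 6.89, 7.04, 7.34 and 7.60 in NeuNT/H1074R replicates 1 to 4, against 6.76, 7.19, 7.34 and 6.94 in NeuNT replicates 1 to 4. Its highest and lowest tumours were 1.79-fold apart.

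Il1b, which encodes a cytokine precursor that caspase-1 cuts, had the widest range. Its log2 signals were 9.15, 7.12, 6.90 and 6.55 in NeuNT/H1074R replicates 1 to 4, and 6.12, 7.15, 8.04 and 9.75 in NeuNT replicates 1 to 4. NeuNT replicate 4 and NeuNT/H1074R replicate 1 were the highest, and NeuNT replicate 1, the tumour with the most Casp4 and Casp12, was the lowest.

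Il18, a cytokine that many epithelial cells store as a precursor, had 5.26, 5.11, 4.54 and 4.62 in NeuNT/H1074R replicates 1 to 4. In NeuNT replicates 1 to 4 it had 5.49, 5.48, 4.93 and 6.39. Of the NeuNT tumours, only replicate 3 lay within the range of the NeuNT/H1074R tumours.

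Gsdmd, the pore-forming substrate of caspase-1 and caspase-4, had 5.81, 5.76, 5.38 and 5.13 in NeuNT/H1074R replicates 1 to 4, and 5.55, 5.63, 5.69 and 6.07 in NeuNT replicates 1 to 4. NeuNT replicate 4 was again the highest. Its other probe, of lower mean signal, ran from 5.05 to 5.50 and differed in sign, with means of 5.32 in NeuNT/H1074R and 5.16 in NeuNT tumours.

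**Figure D2:**
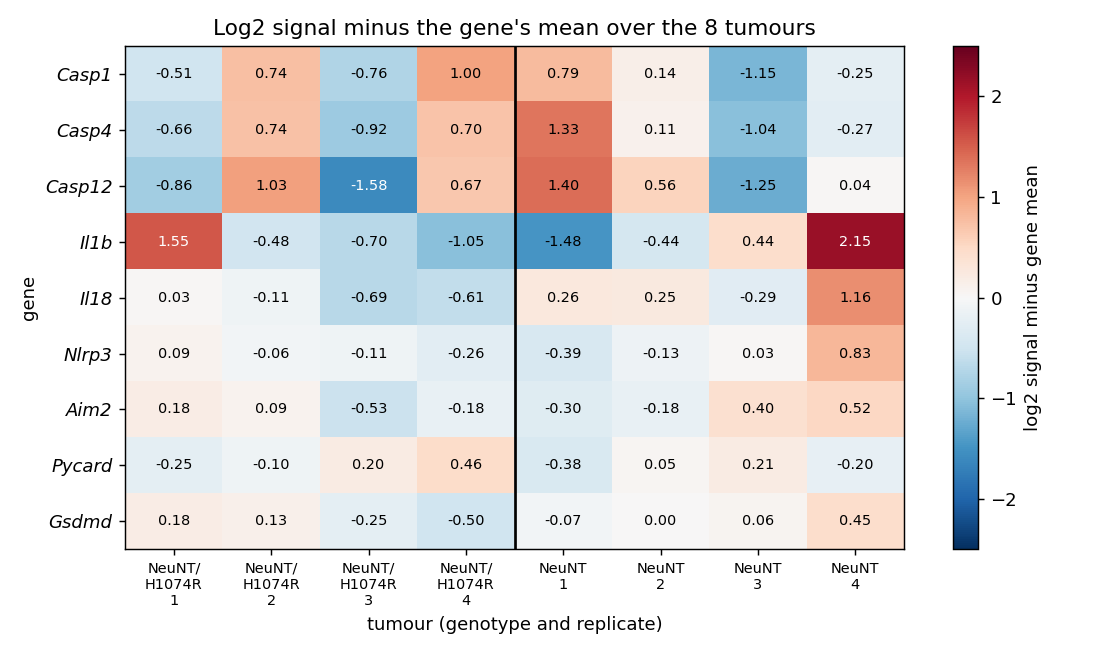
Log2 signal of each gene (rows) in each tumour (columns, NeuNT/H1074R left of the line and NeuNT right) minus the gene's mean over the 8 tumours. The caspase rows share their high and low tumours, while Il1b reaches 2.15 in NeuNT replicate 4 and 1.55 in NeuNT/H1074R replicate 1.

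The comparison of the study asks how NeuNT tumours with mutant p110α differ from those without it. Of the 9 genes, 7 had a lower and 2 a higher mean in NeuNT/H1074R tumours, and 0 passed (limma, adjusted p from 0.978 to 0.997 over all genes tested). Of all 16635 genes tested, 0.0% passed. At an unadjusted p under 0.05 there were 0 of the 9 genes, against 3.82% of all tested genes. The genotypes failed to overlap in 0 of the 9, against 2.69% of all tested genes. The median difference of the 9 genes was −0.22, against −0.0027 over all tested genes, of which 50.5% had a lower mean in NeuNT/H1074R.

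Il18 averaged 4.88 ± 0.36 in NeuNT/H1074R and 5.57 ± 0.60 in NeuNT tumours (SD, n = 4 each). The log2 difference of −0.69 ± 0.31 (SE) had a 95% interval from −1.39 to 0.01 and did not pass (limma, unadjusted p = 0.0527, adjusted p = 0.978). Genotype accounted for 39.2% of its variance over the tumours, the largest share of the 9 genes, and the difference was −0.42 without NeuNT replicate 4. Il18 ranked 683 of the 16635 tested genes by p.

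The caspase differences had wide intervals on both sides of 0. Casp1 averaged 9.43 ± 0.88 in NeuNT/H1074R and 9.20 ± 0.81 in NeuNT tumours (SD, n = 4 each), a log2 difference of 0.24 with an interval from −0.93 to 1.40. Casp4 averaged 6.95 ± 0.88 and Casp12 6.45 ± 1.24 in NeuNT/H1074R tumours, against 7.02 ± 0.99 and 6.82 ± 1.11 in NeuNT tumours (SD, n = 4 each). Their differences were −0.07, from −1.35 to 1.22, and −0.37, from −1.98 to 1.23. Genotype accounted for 2.56%, 0.17% and 3.27% of the variance of the 3 genes. The sign of each turned when single tumours were left out, with Casp1 from −0.11 to 0.54, Casp4 from −0.42 to 0.37 and Casp12 from −0.85 to 0.09. A fit added after the data had been seen left out both NeuNT/H1074R tumours with high muscle markers. They were the lowest NeuNT/H1074R tumours in all 3 caspases, so leaving them out had to raise the differences. The differences were then 0.99, 0.69 and 0.66, and none passed (limma, adjusted p = 0.727, 0.798 and 0.822). NeuNT replicate 3, low in all 3 caspases, had a muscle list mean of −0.72, and the part of muscle in these values was not tested.

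Il1b averaged 7.43 ± 1.17 in NeuNT/H1074R and 7.76 ± 1.54 in NeuNT tumours (SD, n = 4 each), a difference of −0.34 with an interval from −2.20 to 1.53. Nlrp3 differed by −0.17 (−0.72 to 0.37), Aim2 by −0.22 (−0.74 to 0.30) and Gsdmd by −0.22 (−0.66 to 0.22). Pycard differed by 0.16 (−0.29 to 0.61). Without NeuNT replicate 4 the Il1b and Nlrp3 differences turned to 0.33 and 0.08. Without both NeuNT/H1074R tumours with high muscle markers the Il1b difference was −0.93. The intervals reach well past these values on both sides and do not show that the genotypes were alike.

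**Figure D3:**
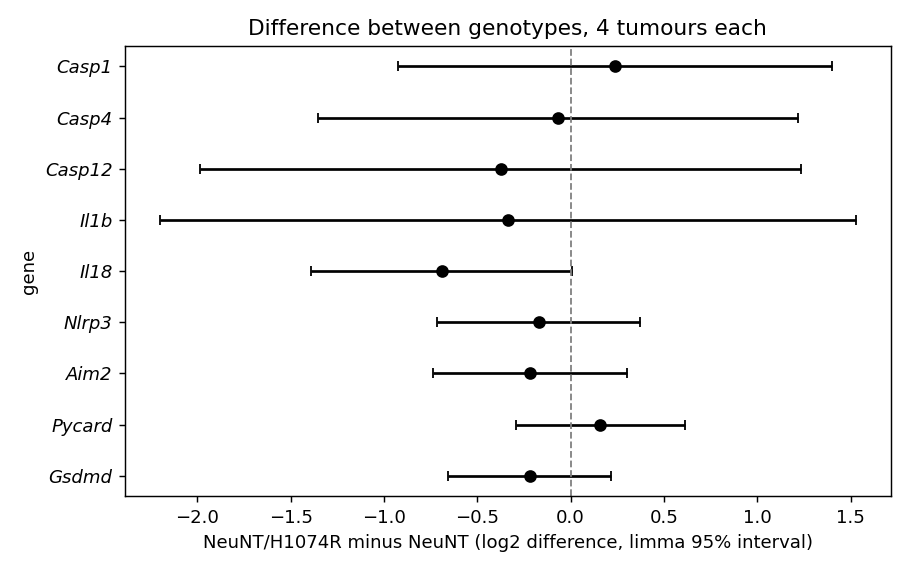
Log2 difference, NeuNT/H1074R minus NeuNT, for each of the 9 genes with its 95% interval from limma (4 tumours of each genotype); the dashed line is 0. The interval of Il18 ends at 0.01 and all others extend further across 0.

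Whether the genes were high in the same tumours was read from all 36 pairs over the 8 tumours. After Benjamini-Hochberg adjustment over the 36 pairs, 4 pairs passed an exact two-sided permutation test, and 10 had an unadjusted p under 0.05. The same 4 passed with Spearman's coefficient. Within a genotype, 4 tumours are too few for a coefficient of their own. With each gene taken as its deviation from its genotype mean, 4 pairs passed. Such deviations sum to 0 within each genotype, so their permutation p is only approximate and can be too small.

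The strongest pair was Casp4 with Casp12, at Pearson r = 0.96 (exact permutation, adjusted p = 0.0058) and Spearman rho = 0.98 (exact permutation, adjusted p = 0.0143). Casp1 with Casp4 had r = 0.96 and rho = 0.93 (exact permutation, adjusted p = 0.00714 and 0.0268). Casp1 with Casp12 had r = 0.92 and rho = 0.90 (exact permutation, adjusted p = 0.023 and 0.0411). Without the 2 tumours farthest from the median of the gene named first, r was 0.95, 0.98 and 0.97 for these pairs. Among the 16634 other tested genes ranked by r with Casp4, Casp12 stood at 9 and Casp1 at 13. For Casp12, Casp4 stood at 4 and Casp1 at 31, and for Casp1, Casp4 stood at 25 and Casp12 at 90.

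Il1b with Nlrp3 was the other pair, with r = 0.90 and rho = 0.93 (exact permutation, adjusted p = 0.00357 and 0.0268). Without NeuNT replicate 4 and NeuNT/H1074R replicate 1, the tumours farthest from the Il1b median, r was 0.94. In the tumours left, Nlrp3 ran only from 3.87 to 4.29, around the line of 4.06 for dim genes. Among the 16634 other tested genes ranked by r, Nlrp3 stood at 81 for Il1b and Il1b at 153 for Nlrp3. Aim2 and Gsdmd also had positive coefficients with Il1b, 0.81 and 0.79, and Gsdmd with Il18 0.81, none of which passed (exact permutation, adjusted p = 0.083, 0.0892 and 0.0892). Their rho was 0.81, 0.86 and 0.60 (exact permutation, adjusted p = 0.098, 0.0643 and 0.34). Without the 2 tumours farthest from the median of the cytokine, r was 0.75, 0.50 and 0.59. The caspases had negative coefficients with Il1b, down to −0.58 for Casp4, which did not pass either (exact permutation, adjusted p = 0.322; rho = −0.57, adjusted p = 0.363; r = −0.45 without NeuNT replicates 1 and 3).

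Pycard had negative coefficients with all 8 other genes, from −0.69 with Gsdmd to −0.07 with Casp1, and 0 of them passed. The 2 nearest to the threshold were Il18 and Gsdmd (exact permutation, adjusted p = 0.163 for both, with rho of −0.76 and −0.52 and adjusted p = 0.132 and 0.416). Without the 2 farthest tumours their r was −0.82 and −0.78. Without NeuNT replicate 4, 1 of the 36 pairs passed, with Il1b and Nlrp3 at r = 0.91 and Casp1 and Casp4 at r = 0.96 (exact permutation, adjusted p = 0.0619 for both).

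**Figure D4:**
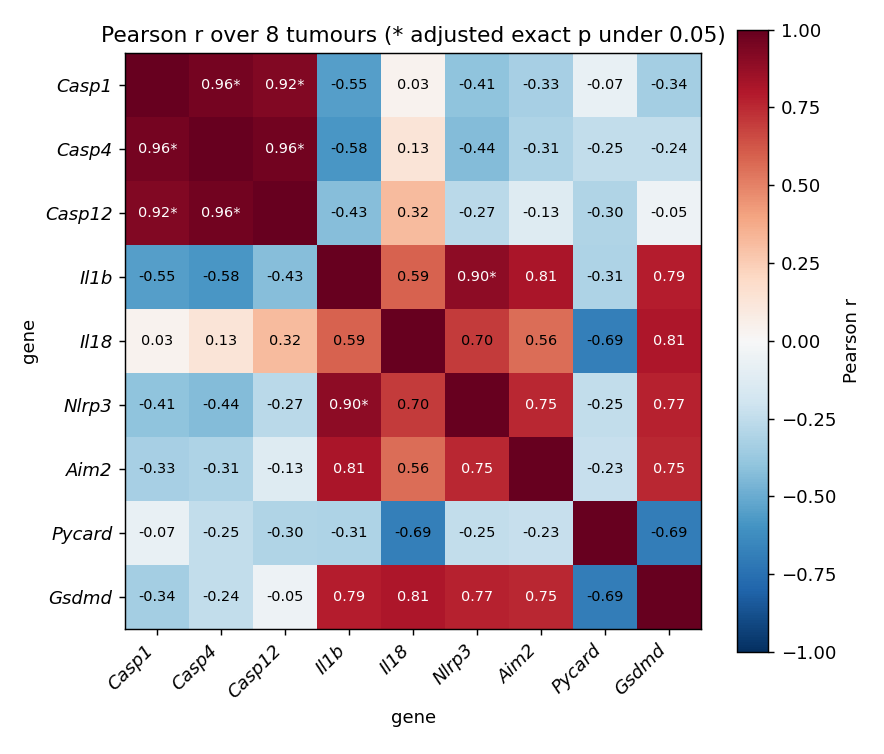
Pearson r over the 8 tumours for each pair of the 9 genes; an asterisk marks an adjusted exact permutation p under 0.05. The caspases form a block at 0.92 to 0.96, in which all pairs passed. Il1b, Nlrp3, Aim2 and Gsdmd have coefficients of 0.75 to 0.90 with one another, of which only Il1b with Nlrp3 passed.

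NeuNT/H1074R replicate 1 and NeuNT replicate 4 were the 2 tumours highest in Il1b and Nlrp3. They also had the 2 highest list means of squamous keratinocyte and neutrophil markers. The others did not follow that order: NeuNT/H1074R replicate 3 was next in both marker lists, at 0.46 and 0.38, but low in Il1b, and NeuNT replicate 3, next in Il1b and Nlrp3, had a squamous list mean of −0.71. Of 10 squamous markers, all 10 were tested, and their summed log2 signal ran from 53.2 to 68.1 in NeuNT/H1074R and from 47.0 to 95.9 in NeuNT tumours. Of 10 neutrophil markers, 8 were tested, with sums from 44.6 to 58.0 in NeuNT/H1074R and from 41.6 to 66.2 in NeuNT tumours. Ly6g and Camp of that list were too dim, and the signals of S100a8 ran from 4.51 to 10.92. Single markers did not all follow the list means. Ngp was highest in NeuNT/H1074R replicate 3 (5.28), against 4.75 in NeuNT/H1074R replicate 1 and 4.73 in NeuNT replicate 4. S100a8, Retnlg and Ltf were highest in NeuNT replicate 4, but another tumour exceeded NeuNT/H1074R replicate 1 in each. The squamous marker Lor was 4.99 in NeuNT/H1074R replicate 1 and 5.23 in NeuNT replicate 1.

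Nlrp3 had r = 0.94 with the squamous list mean and 0.87 with the neutrophil list mean, and Il1b 0.87 with the neutrophil list (Spearman rho = 0.90, 0.86 and 0.67). Of the 36 relations between the 9 genes and 4 marker lists, 0 passed the exact permutation test after adjustment and 6 had an unadjusted p under 0.05 (adjusted p = 0.0548 for these 3, and 0.164, 0.193 and 0.362 for their rho). Without NeuNT replicate 4 and NeuNT/H1074R replicate 1, these coefficients were 0.47, 0.55 and 0.48, so they rest on those tumours. With deviations from the genotype means these 3 relations passed, by a permutation p that is then only approximate and can be too small. Without NeuNT/H1074R replicate 3 they were among 4 that passed the exact permutation test. Il1b with the squamous list had r = 0.83 and rho = 0.76 (exact permutation, adjusted p = 0.069 and 0.362), and r was 0.27 without those tumours. The part of these cell types in the Il1b and Nlrp3 signals was not tested.

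Macrophage and monocyte markers, 12 of 12 tested, summed to 88.0 to 102 in NeuNT/H1074R and 94.5 to 104 in NeuNT tumours. Their list mean had r = 0.82 with Aim2 and 0.71 with Gsdmd, which did not pass (exact permutation, adjusted p = 0.0929 and 0.264). Their rho of 0.57 and 0.55 did not pass (adjusted exact p = 0.362 for both), and r was 0.68 and 0.39 without NeuNT/H1074R replicates 3 and 4, the farthest from the list median. The part of macrophages in these genes was not tested.

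**Figure D5:**
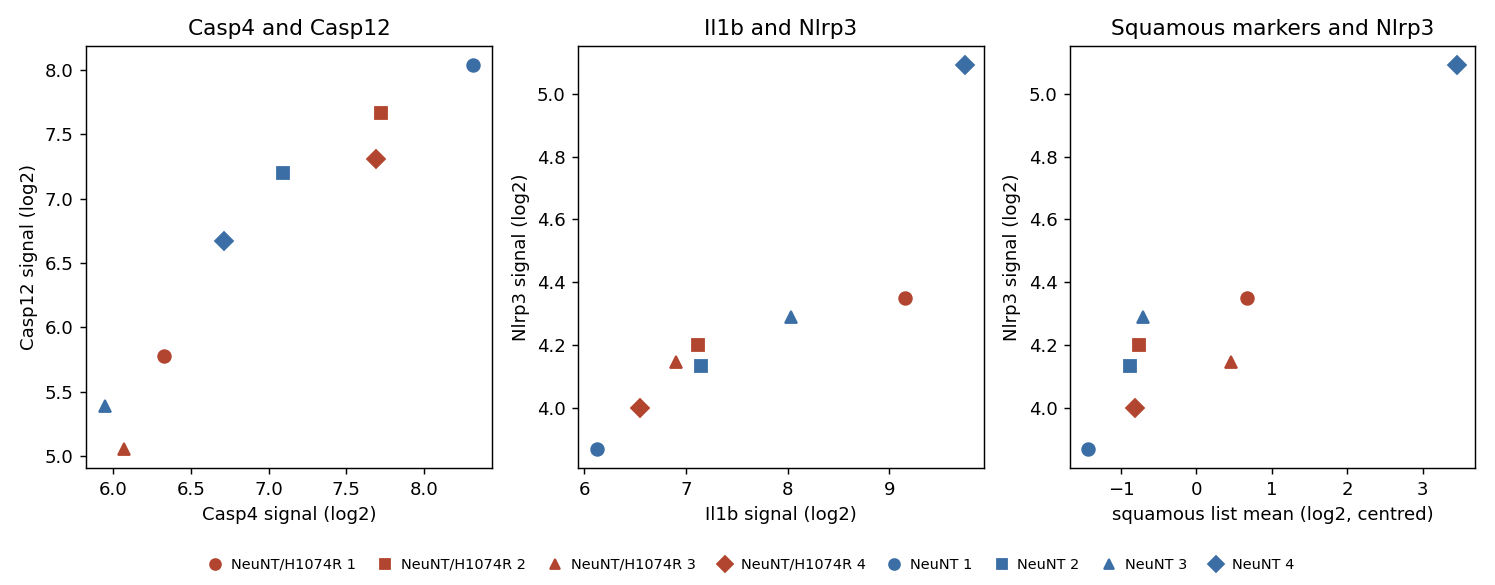
Log2 signals in the 8 tumours, with Casp12 against Casp4 (left), Nlrp3 against Il1b (middle) and Nlrp3 against the mean of the squamous keratinocyte markers, centred per gene (right); colour is the genotype and marker shape the replicate. The caspase points are spread along their whole range, whereas NeuNT replicate 4 stands alone at the top right of the other panels.

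The genes whose pattern over the 8 tumours was most like that of each member were sought among the 16634 other tested genes, as a description with no test. With Pearson's r as the measure of likeness, they were Atg10 (0.98), Smim19 (0.98) and Meak7 (0.98) for Casp1. They were Tmem170 (0.98), Igfals (0.98) and Lrrc61 (0.98) for Casp4, and Spsb2 (0.99), Bscl2 (0.98) and Igfals (0.98) for Casp12. None of these lies on chromosome 9. With so few tumours high values are common, and 175 genes had an r above 0.9 with Casp1, 127 with Casp4 and 65 with Casp12.

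For Il1b the genes most alike were Mcemp1 (0.99), Nrp2 (0.98) and Fcgr3 (0.98), the last an immunoglobulin receptor of myeloid cells. For Nlrp3 they were AI661453 (0.99), Bpifc (0.98) and Txnrd1 (0.98), and for Il18 Cst7 (0.97), Plbd1 (0.95) and Lgi2 (0.95). For Aim2 they were Fcgr4 (0.98), another immunoglobulin receptor of myeloid cells, Cd52 (0.97) and Lat2 (0.96). For Gsdmd they were Cd300ld (0.96), Itga4 (0.95) and AA986860 (0.95), and for Pycard Ldlrad1 (0.97), Slc22a16 (0.97) and Pard3b (0.93). The number of genes above 0.9 was 72 for Il1b, 141 for Nlrp3, 25 for Il18, 38 for Aim2, 20 for Gsdmd and 12 for Pycard.

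Around the 9 genes, 7 lists of 103 pathway genes held 72 tested genes. None passed in either direction, 2 (2.78%) had an unadjusted p under 0.05 and 2 (2.78%) had genotypes that did not overlap, close to the 3.82% and 2.69% of all tested genes. Their median difference was −0.12, with 46 lower and 26 higher in NeuNT/H1074R. All differences named for these lists with all 8 tumours had an adjusted p of 0.978 or more in limma. Those of Naip2, Nlrx1, Ifi205, Casp8 and Rela stayed within 1.5 times their value in every alternative run, and those of the other named pathway genes did not.

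Of the other NOD-like receptors and sensors, 12 of 16 were tested, 7 had a higher and 5 a lower mean in NeuNT/H1074R, and the median difference was 0.04. That median was 0.21 without NeuNT replicate 4 and −0.066 without NeuNT replicate 1. Naip2, whose product recognises the rod protein of bacterial secretion systems for NLRC4, had 4.86, 5.30, 4.84 and 5.03 in NeuNT/H1074R replicates 1 to 4. It had 4.59, 4.24, 4.72 and 4.58 in NeuNT replicates 1 to 4, a difference of 0.47 ± 0.15 (SE). The mitochondrial Nlrx1 ran from 6.69 to 6.98 in NeuNT/H1074R and from 6.48 to 6.64 in NeuNT tumours, a difference of 0.25 ± 0.11 (SE). In these 2 genes the genotypes did not overlap. Nlrc4, the sensor served by the NAIP proteins, differed by 0.28 and Nod1 by 0.16.

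The HIN-200 genes, relatives of Aim2 induced by interferon, had the widest median, −0.55 over 4 tested of 11, with 3 lower and 1 higher in NeuNT/H1074R. Ifi205 had 7.33, 8.47, 6.25 and 6.28 in NeuNT/H1074R replicates 1 to 4, and 9.15, 8.43, 7.95 and 7.64 in NeuNT replicates 1 to 4. The difference was −1.21 ± 0.53 (SE), with NeuNT/H1074R replicate 2 inside the NeuNT range. Ifi204 differed by −0.74, Ifi202b by −0.35 and Ifi207 by 0.12. The Ifi202b and Ifi207 differences turned without NeuNT replicate 4, that of Ifi204 was −0.41 without it, and the list median was −0.21.

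Of the IL-1 family ligands, receptors and signalling genes, 17 of 23 were tested, 10 lower and 7 higher, with a median of −0.08. Il1r1, the receptor for IL-1β, ran from 6.42 to 7.92 in NeuNT/H1074R and from 7.0 to 8.34 in NeuNT tumours, a difference of −0.58 ± 0.39 (SE). The alarmin Il33 differed by −0.78 ± 0.77 (SE), and by −0.20 without NeuNT replicate 2, where it reached 10.56. The signalling genes Traf6 and Irak1 differed by −0.13 and −0.15.

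Priming receptors and transcription factors were lower in 14 and higher in 3 of 17 tested of 19, with a median of −0.24. Over all tested genes, 50.5% were lower and the median was −0.0027. Of the 17, 0 had an unadjusted p under 0.05 in limma, and the count itself was not tested. The NF-κB subunit Rela stood at 9.88 ± 0.06 in NeuNT/H1074R and 10.12 ± 0.20 in NeuNT tumours (SD, n = 4 each). Irf8, a factor of myeloid cells, differed by −0.34, Tlr4, the receptor for extracellular lipopolysaccharide, by −0.25 and Nfkb2 by −0.20. The Irf8 difference was −0.17 without NeuNT/H1074R replicate 3 and −0.065 with its probes averaged. Markers of some other cell types also had lower means in NeuNT/H1074R. Among them were 11 of 12 macrophage and monocyte markers (list difference −0.37) and 8 of 8 fibroblast markers (−0.57). Of 10 T and NK cell markers, 6 were tested and all 6 were lower (−0.40). Those were Cd3e, Cd3d, Cd3g, Cd4, Cd8a and Prf1, while Ncr1, Klrb1c and Gzma were too dim. Summed log2 signals of the tested T and NK cell markers ran from 30.0 to 35.4 in NeuNT/H1074R and from 31.5 to 41.0 in NeuNT tumours. Those of the fibroblast markers ran from 61.4 to 69.0 and from 63.6 to 74.9. Squamous markers were lower in 8 of 10 (−0.22) and basal and myoepithelial markers in 5 of 7 tested (−0.03). Other lists went the other way, with higher means in 7 of 7 tested skeletal muscle markers (1.18) and 5 of 8 luminal markers (0.12). Dendritic cell markers were higher in 4 of 7 tested (0.07), and neutrophil markers in 5 of 8 tested with a list difference of −0.04. The part of these cell types in the pathway genes was not tested. Of the upstream triggers and modulators, 14 of 17 were tested, 9 lower and 5 higher, with a median of −0.16. The DNA sensor gene Cgas differed by −0.32, Nek7, a kinase that binds NLRP3, by −0.49, the channel gene Panx1 by −0.37 and Sting1 by 0.13. The Nek7 difference was −0.17 without NeuNT replicate 2, and those of Cgas and Panx1 were −0.15 and −0.21 without NeuNT/H1074R replicate 4.

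Among the other gasdermins and the membrane rupture gene, 3 of 10 were tested, 2 higher and 1 lower in NeuNT/H1074R. Gsdma, a gasdermin of skin, had 7.06, 5.12, 8.35 and 5.16 in NeuNT/H1074R replicates 1 to 4, and 4.56, 3.94, 5.14 and 9.24 in NeuNT replicates 1 to 4. It was high in the 3 tumours with the highest squamous list means, NeuNT replicate 4 and NeuNT/H1074R replicates 1 and 3, and the part of squamous cells in it was not tested. Its difference of 0.70 ± 1.21 (SE) was 1.87 without NeuNT replicate 4 and −0.59 without both NeuNT/H1074R tumours with high muscle markers. Ninj1, which ruptures the membrane of dying cells, differed by −0.19, and Gsdme by 0.14.

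Of the apoptotic and epidermal caspases, 5 of 7 were tested, 4 lower and 1 higher, with a median of −0.28. Casp8 had 9.97, 10.21, 9.69 and 9.84 in NeuNT/H1074R replicates 1 to 4 and 10.12, 10.21, 10.54 and 10.11 in NeuNT replicates 1 to 4, a difference of −0.32 ± 0.15 (SE). Casp2 differed by −0.28 and Casp6 by −0.09. Without NeuNT replicate 1 the Casp2 difference was −0.061 and the list median −0.12, and without NeuNT replicate 3 the Casp2 difference was −0.51. Casp14, the caspase of cornifying skin, differed by −0.76, which rested on NeuNT replicate 4 and was 0.18 without it.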

How the data were processed

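The authors deposited 1 table of log2 signals holding 41345 probes and 8 columns, 1 for each tumour. The submitters' processing notes name Affymetrix Expression Console and Transcriptome Analysis Console, with no role for either. Their versions and the background correction and normalization used are not stated. Values from 0.887 to 13.6 fit a log2 scale. Precision is limited by having 4 arrays a genotype.

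The platform annotation gave 1 gene symbol to 23521 probes. Of 22180 genes, 1082 had several probes, and the probe of highest mean was used. Leaving out means under 4.06 removed 5545 genes and left 16635. Genotypes, taken from the labels, were compared as NeuNT/H1074R minus NeuNT with limma 3.58.1 in R 4.3.3 (eBayes with an intensity trend, two-sided, Benjamini-Hochberg over all 16635 genes, threshold 0.05), tested on simulated data. Exact permutation tests used all pairings of the 8 tumours in Python 3.11.15.

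The 9 genes and all lists were chosen with earlier results of these data known. Named genes are the 9, up to 4 per pathway list of smallest p, the 3 most alike by r for each of the 9 (predicted names left out), and the pairs that passed or, with none, the 3 of smallest p. Exceptions are named as chosen after their values were seen or as examples of marker lists. Alternatives left out single tumours, changed normalization, filter, probe averaging, variance model and array weights.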

Additional observations from a re-analysis of the deposited data

Results flagged for a closer look

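Among 72 sets of 4 tumours (36 genes in each genotype, the 9 genes and the named pathway genes), 1 held a tumour far from the other 3, by a criterion that chance meets in about 1 of 20 sets. Casp14 had 7.82 in NeuNT replicate 4, against 4.0 to 4.11 in the other NeuNT tumours. The squamous keratinocyte markers were also highest in that tumour. None of the 9 inflammasome genes had such a tumour in either genotype.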

How the results depend on the processing

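No paired analysis was possible because the labels give the genotypes no shared replicate numbers. In limma, 0 genes passed in the fit as reported and under all 17 alternatives. With single tumours left out, the Casp1 difference ran from −0.11 to 0.54, turning without NeuNT replicate 3 (−0.11) and NeuNT/H1074R replicate 4 (−0.06). Casp4 ran from −0.42 to 0.37, with 0.37 when NeuNT replicate 1 was left out and 0.14 and 0.23 for NeuNT/H1074R replicates 1 and 3, and was 0.15 with array weights. Casp12 ran from −0.85 to 0.091, turning without NeuNT replicate 1 (0.03) and NeuNT/H1074R replicate 3 (0.091). Il1b ran from −0.91 to 0.33, Nlrp3 from −0.33 to 0.077, Ifi202b from −0.73 to 0.073, Ifi207 from −0.012 to 0.25 and Casp14 from −1.09 to 0.18, each turning without NeuNT replicate 4. In a fit added after the data had been seen, without both tumours with high muscle markers, Casp4 was 0.69, Casp12 0.66, Irak1 0.047 and Gsdma −0.59. The Il18, Aim2, Pycard and Gsdmd differences kept their sign in every alternative run, and that of Gsdmd was −0.025 with its probes averaged. With single tumours left out, 1 to 5 pairs passed. The low count of 1 came without NeuNT replicate 4, and the high of 5 when NeuNT/H1074R replicate 3 or 4 or NeuNT replicate 1 was left out. Relations with marker lists numbered 0 to 4, 4 without NeuNT/H1074R replicate 3, and 3 by the approximate p of deviations from genotype means. The cause was not tested. Il18, Nlrp3 and Aim2 have no value with the dimmer 50% of genes left out.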

Other observations

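Measured neighbours on either side of the caspase row on chromosome 9 were looked at after the caspase values had been seen, with RefSeq used for the order. Pdgfd, a platelet-derived growth factor gene beyond Casp12 with 3 RefSeq genes between, had 5.85, 6.39, 4.87 and 6.19 in NeuNT/H1074R replicates 1 to 4, and 7.63, 6.44, 5.69 and 5.77 in NeuNT replicates 1 to 4. Its r was 0.87 with Casp12 and its rho 0.90 (exact permutation, adjusted p = 0.0104 and 0.0435 over 12 relations), and r was 0.79 without the 2 tumours farthest from the Casp12 median. Of the other tested genes, 0.751% had a higher r with Casp12. With Casp4 its r was 0.87 and its rho 0.88 (exact permutation, adjusted p = 0.0146 and 0.0435), and 1.57% of genes had a higher r. With Casp1 its r of 0.72 and rho of 0.79 did not pass (exact permutation, adjusted p = 0.062 and 0.0559), and 7.65% of genes had a higher r. Msantd4, on the other side with 8 genes between, had r = 0.86 and rho = 0.79 with Casp12 (exact permutation, adjusted p = 0.032 and 0.0559), and 0.998% of the other tested genes had a higher r. Its r was 0.61 without the same 2 tumours. With Casp1 and Casp4 its r was 0.83 and 0.79 and its rho 0.81 for both (exact permutation, adjusted p = 0.0372 and 0.0497 for r and 0.0559 for rho), and 3.02% and 3.90% of genes had a higher r. The glutamate receptor gene Gria4, nearer than Msantd4, had r = 0.48 and rho = 0.71 with Casp12 and did not pass (exact permutation, adjusted p = 0.384 and 0.0987), and r was 0.36 without those tumours. With Casp1 and Casp4 its r was 0.34 and 0.37. Ddi1, beyond Pdgfd, was below the line for dim genes, with signals from 2.86 to 3.31, and its r of −0.38 with Casp1, −0.33 with Casp4 and −0.37 with Casp12 did not pass (exact permutation, adjusted p = 0.448, 0.453 and 0.448). Copy number was not measured, and these values are given without a cause.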
